A study of Mus musculus with 24 samples.

Results

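The genes described are 10 core genes of the mitochondrial route to apoptosis: the survival genes Bcl2, Mcl1 and Bcl2l1, the BH3-only genes Bcl2l11, Bbc3, Pmaip1 and Bid, the effector genes Bax and Bak1, and the apoptosome gene Apaf1. They were chosen by name, through the Entrez gene numbers of the count table matched to mouse symbols, and are 10 of the 27179 genes in the table. The colonic lamina propria of 8 Nmur1iCre-eGFP mice was sorted into 3 populations, and an RNA-seq library was made from each population of each mouse. The populations were Nmur1-eGFP+ group 2 innate lymphoid cells (ILC2, gated as CD45+ Lin- CD90.2+ CD127+ KLRG1+) and a pair of CD4 T cell populations gated as CD45+ CD3+ CD5+ CD4+, of which one carried the Nmur1-eGFP reporter (NMUR1+ cells) and the other lacked it (NMUR1- cells). All mice had received 3% dextran sulfate sodium (DSS, an agent that injures the colon lining) for 5 days and water for 3 days. Mice 1 to 4 were injected intraperitoneally every other day with neuromedin U (NMU, a neuropeptide whose receptor is NMUR1), and mice 5 to 8 with phosphate-buffered saline (PBS). This gave 6 groups of 4 libraries: ILC2 from NMU mice, ILC2 from PBS mice, NMUR1+ CD4 T cells from NMU mice and from PBS mice, and NMUR1- CD4 T cells from NMU mice and from PBS mice. The sample labels number 4 mice for each treatment, whereas the study's design text gives 3. There were no mice without DSS, so every level below is one after colon injury, and the sources used here state neither the age nor the sex of the mice.

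In the mitochondrial route to apoptosis, BAX and BAK1 open the outer mitochondrial membrane, cytochrome c escapes, and APAF1 assembles with it into the apoptosome, which activates caspase-9. BCL2, MCL1 and BCL-XL (the product of Bcl2l1) hold BAX and BAK1 in check, and BH3-only proteins release that check by binding into a groove of the survival proteins. BIM (from Bcl2l11) binds all the survival proteins, whereas NOXA (from Pmaip1) binds mainly MCL1 and A1. In lymphocytes, survival depends on cytokines such as IL-7 and IL-2, which act through STAT5 and maintain survival proteins, and lymphoid cells deprived of cytokine die largely through BIM. Much of this control acts on proteins, which were not measured here.

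The table gave raw counts per gene, and levels are given as CPM, a gene's count scaled to a fixed library size, on library sizes scaled by the trimmed mean of M-values (TMM). Library totals ran from 8485266 to 17854961 counts, with a median of 12468364. As a check of the labels, the summed level of 5 T cell markers (Cd3e, Cd3d, Cd4, Cd5 and Trac) was 5.44 to 38 CPM in the 8 ILC2 libraries, against 3181 to 4501 CPM in NMUR1+ CD4 T cells and 3732 to 4395 CPM in NMUR1- CD4 T cells. That of 5 ILC2 markers (Klrg1, Gata3, Il1rl1, Il7r and Thy1) was 6900.4 to 9364 CPM in ILC2, 2633 to 4179.6 CPM in NMUR1+ and 1146 to 1556 CPM in NMUR1- CD4 T cells. Most of that sum was Gata3, and Thy1, which encodes the CD90 of the ILC2 gate, went the other way: its mean was 84.2 CPM in ILC2, against 236 CPM for the NMUR1+ population and 405 CPM for NMUR1-, with all ILC2 libraries below. Immunoglobulin genes and Jchain, which plasma cells transcribe, took 0.0241 to 7.93% of counts in ILC2, 0.784 to 30.4% in NMUR1+ CD4 T cells and 0.146 to 5.58% in NMUR1- CD4 T cells. In 4 NMUR1+ libraries, those of mice 1, 4, 5 and 7, that share was above 20%. Some genes dropped out of single ILC2 libraries: of the genes with a median of at least 100 counts in the other 7 libraries of a population, 2 to 266 had 0 or 1 count in an ILC2 library, with the 266 in mouse 1, against 1 to 15 in an NMUR1+ library and 0 to 8 in an NMUR1- library. Bid was among them, with 0 counts in the ILC2 library of mouse 4. Bbc3, whose counts were lower, had 1 count in the ILC2 libraries of mice 1 and 5. As these are sorted bulk samples, fewer cells of a kind that transcribes a gene and less RNA per cell cannot be told apart.

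The genes lie apart in the genome. On GRCm38 (mm10), with gene bounds from RefSeq (GRCm38.p6), the survival genes were Bcl2 at chr1:106538176-106714290 (Entrez 12043), Mcl1 at chr3:95656944-95663179 (Entrez 17210) and Bcl2l1 at chr2:152758732-152833803 (Entrez 12048). The BH3-only genes were Bcl2l11 at chr2:128126038-128162547 (Entrez 12125), Pmaip1 (given below), Bbc3 at chr7:16308398-16318334 (Entrez 170770) and Bid at chr6:120893119-120917062 (Entrez 12122). Bax lay at chr7:45461695-45466903 (Entrez 12028), Bak1 at chr17:27019812-27028627 (Entrez 12018) and Apaf1 at chr10:90989311-91082743 (Entrez 11783).

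The promoters of 3 genes are printed: those of Bcl2 and Bcl2l11, which were both higher in ILC2, and that of Bax, which was nearly level between populations. Each is the 250 bases before a RefSeq transcription start (GRCm38.p6), 5′ to 3′ on the gene's strand, and capitals mark a match to 1 of the 4 motifs searched.
Bcl2, chr1:106714291-106714540, minus strand: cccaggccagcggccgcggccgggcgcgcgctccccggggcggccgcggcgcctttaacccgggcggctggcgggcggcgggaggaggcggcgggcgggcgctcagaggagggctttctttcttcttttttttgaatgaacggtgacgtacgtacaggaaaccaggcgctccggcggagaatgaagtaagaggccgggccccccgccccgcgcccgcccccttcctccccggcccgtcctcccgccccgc
Bcl2l11, first listed start, chr2:128125788-128126037, plus strand: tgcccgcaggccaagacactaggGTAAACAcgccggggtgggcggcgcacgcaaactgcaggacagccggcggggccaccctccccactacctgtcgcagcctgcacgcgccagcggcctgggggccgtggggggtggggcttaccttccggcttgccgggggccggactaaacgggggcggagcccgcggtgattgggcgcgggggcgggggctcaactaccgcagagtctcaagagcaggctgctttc
Bax, chr7:45466899-45467148, minus strand: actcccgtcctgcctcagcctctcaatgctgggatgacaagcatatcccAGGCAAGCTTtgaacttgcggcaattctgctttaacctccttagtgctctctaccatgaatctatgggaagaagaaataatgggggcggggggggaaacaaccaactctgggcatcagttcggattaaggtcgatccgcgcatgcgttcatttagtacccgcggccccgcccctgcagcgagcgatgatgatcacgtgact
The motifs were searched on both strands, with overlaps allowed, in windows of 300 bases that ran from 250 before to 50 after each start, 14 windows for 9 of the 10 genes. Pmaip1 was the gene not searched. The motifs were TTCNNNGAA (STAT), GTAAACA (FOXO), TGANTCA (AP-1) and the p53 half-site. The FOXO letters stood at bases -227 to -221 before the first Bcl2l11 start and, on the other strand, at -167 to -161 before the second of 3 Bbc3 starts. A p53 half-site stood at -201 to -192 before the Bax start. Neither the STAT nor the AP-1 letters were in any of the 14 windows, and the Bcl2 window held none of the 4. Of all 32851 windows in the table, 8.3% held the STAT letters, 3.65% the FOXO letters, 7.81% the AP-1 letters and 8.36% a p53 half-site. A match describes the letters only. The first 30 transcribed bases were found in a GENCODE M21 transcript of the gene for 8 of the 14 windows. The Bcl2l11 and Bax windows were among them, and the Bcl2 window and the 3 Bbc3 windows were not.

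Between genes, levels were compared per kilobase of exon, on population means of 8 libraries. In ILC2, Bax was highest at 91.5 CPM per kb, followed by Pmaip1 at 57.3, Bcl2l1 at 48.5, Bcl2l11 at 26.2 and Mcl1 at 25 CPM per kb. In NMUR1+ CD4 T cells the highest was Pmaip1 at 200.5 CPM per kb, ahead of Bax at 103, Bcl2l1 at 43.2 and Mcl1 at 40.6 CPM per kb. The NMUR1- CD4 T cells had the same order at the top, with Pmaip1 at 130.4, Bax at 88.9, Bcl2l1 at 39.8 and Mcl1 at 30.4 CPM per kb. Bcl2 stood at 11 CPM per kb in ILC2, above Bid at 5.47 and Bbc3 at 3.02 CPM per kb. In the CD4 T cells Bcl2 was the lowest of the 10, at 1.45 CPM per kb in NMUR1+ and 3.03 CPM per kb in NMUR1- cells. Among the 3 survival genes Bcl2l1 had the highest mean per kb in each population. In NMUR1+ cells that order did not hold in the 4 libraries at or below 20% immunoglobulin, where the medians were 32.7 CPM per kb for Bcl2l1 and 42.5 CPM per kb for Mcl1.

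**Figure D1:**
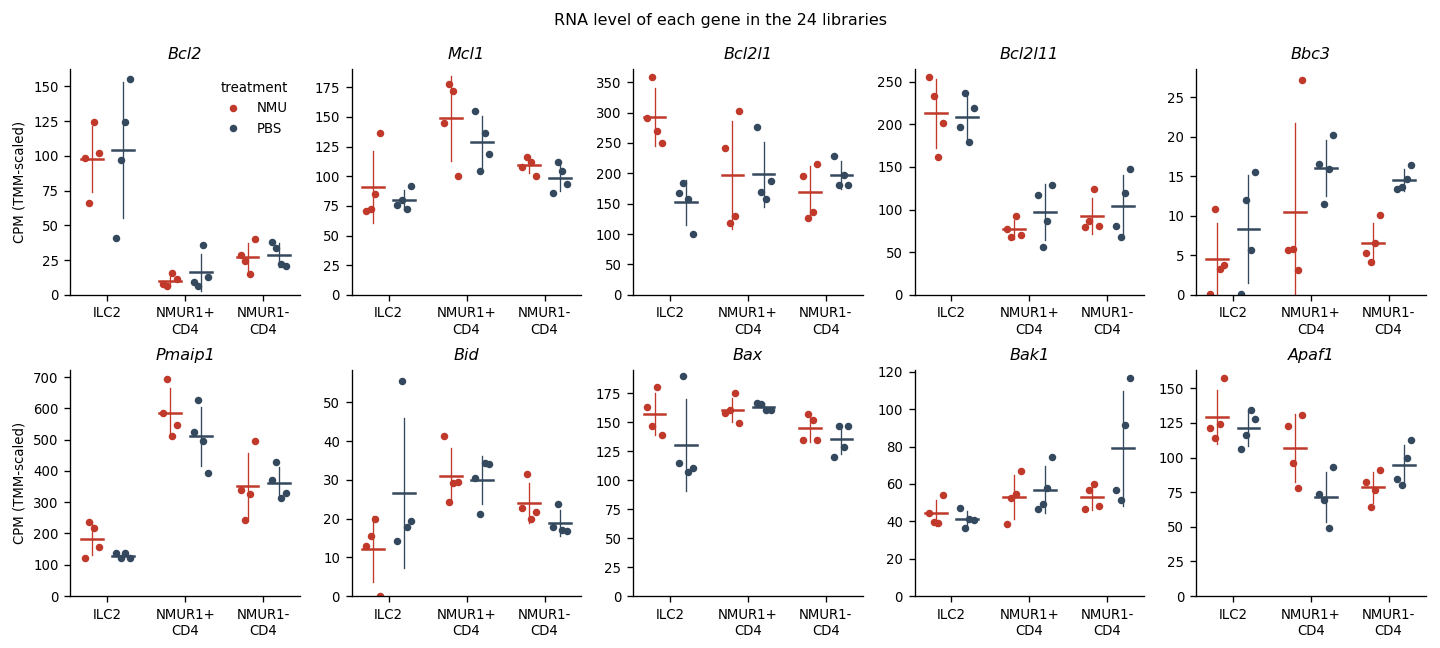
CPM of each of the 10 genes (y axis, from 0) in each library (points), by population, with NMU left of PBS; the horizontal line is the mean of 4 mice and the vertical line ± 1 SD. All 8 ILC2 libraries lie above all 16 CD4 T cell libraries for Bcl2 and Bcl2l11 and below them for Pmaip1, and for Bcl2l1 the 4 ILC2 libraries of NMU mice (250.3 to 359 CPM) lie above the 4 of PBS mice (99.6 to 184 CPM). For Bcl2 the closest ILC2 and CD4 T cell libraries are at 40.6 and 40.0 CPM, an order that unscaled library totals do not keep.

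The first comparison was between ILC2 and the CD4 T cells of the same mice. ILC2 held more Bcl2, Bcl2l11 and Apaf1 RNA and less Pmaip1 RNA than either CD4 population, less Mcl1 than NMUR1+ cells and less Bak1 than NMUR1- cells. Of the 10 genes, 5 passed edgeR's quasi-likelihood test (adjusted p under 0.05 over 13509 genes) between ILC2 and NMUR1+ CD4 T cells, where 38.6% of all genes passed, and 5 between ILC2 and NMUR1- CD4 T cells, where 40.5% passed. In each comparison 3 were higher and 2 lower in ILC2, where 15.1% of all genes were higher and 23.5% lower against NMUR1+ cells, and 16.4% higher and 24.1% lower against NMUR1- cells. The share called is thus close to that of all genes tested, and the account rests on the single genes. The median log2 fold change of all genes tested was -0.10 against NMUR1+ cells and -0.12 against NMUR1- cells, and that of the 10 genes was -0.27 and -0.10 in the same order. Markers of other cells moved with these comparisons. All 7 B and plasma cell markers and 5 of 6 macrophage and dendritic cell markers passed as lower in ILC2 than in NMUR1+ cells, and 4 of 7 and 1 of 6 as lower than in NMUR1- cells. The summed macrophage and dendritic cell markers were at 22.8 to 637 CPM in ILC2, against 591 to 1966 CPM in NMUR1+ and 155 to 691 CPM in NMUR1- cells, and the part of these cells' RNA in the differences was not tested.

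Among the survival genes, Bcl2 differed most. Its level in ILC2 was 98.4, 66.3, 124.1 and 102.1 CPM in NMU mice 1 to 4 and 40.6, 96.8, 124.6 and 155 CPM in PBS mice 5 to 8. In NMUR1+ CD4 T cells it was 7.84, 6.06, 15.5 and 11.4 CPM in the NMU mice and 9.46, 6.63, 36 and 12.9 CPM in the PBS mice, and in NMUR1- CD4 T cells 28.3, 24.6, 14.9 and 40.0 CPM in the NMU mice and 38.1, 33.4, 22.2 and 20.5 CPM in the PBS mice. The lowest ILC2 library, that of PBS mouse 5 at 40.6 CPM, was just above the highest CD4 T cell library, that of NMU mouse 4 at 40.0 CPM. This order rests on the TMM scaling. Bcl2 had 488 of 12448826 counts in the former library and 602 of 14354988 in the latter, which is the reverse order. The log2 fold change of ILC2 over NMUR1+ cells was 2.97 ± 0.34 (SE; adjusted p = 3.73e-07) and over NMUR1- cells 1.86 ± 0.32 (adjusted p = 7.19e-05), and each held in all 8 mice. All 8 ILC2 libraries lay above all 8 of the other population for 4.09% of all genes against NMUR1+ cells and for 5.86% against NMUR1- cells, and 20.5% and 24.3% of all genes had 1 sign in all 8 mice.

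Mcl1, whose product is short-lived and needed by most lymphocytes, was lower in ILC2 than in NMUR1+ cells. Its level in ILC2 ranged from 70.6 to 136 CPM with a median of 77.8, in NMUR1+ CD4 T cells from 99.8 to 178 CPM with a median of 140.5, and in NMUR1- CD4 T cells from 86 to 116 CPM with a median of 106. The ILC2 libraries of NMU mouse 4, at 136 CPM, and PBS mouse 8, at 92.1 CPM, lay within the CD4 T cell range, and the other 6 lay below it. Against NMUR1+ cells the log2 fold change was -0.70 ± 0.14 (SE; adjusted p = 2.90e-04), lower in 7 of 8 mice. Against NMUR1- cells it was -0.28 ± 0.14, with an adjusted p of 0.102, and this comparison was decided by mouse 4: without that mouse it was -0.41 ± 0.10 with an adjusted p of 0.00372.

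Bcl2l1, whose product is BCL-XL, did not pass between the populations. Its level ran from 99.6 to 359 CPM in ILC2 (median 217), from 118 to 302 CPM in NMUR1+ cells (median 179) and from 127 to 229 CPM in NMUR1- cells (median 189). The log2 fold change of ILC2 was 0.09 ± 0.18 (SE; adjusted p = 0.729) over NMUR1+ cells and 0.21 ± 0.18 (adjusted p = 0.382) over NMUR1- cells. Within NMUR1+ cells its level moved with immunoglobulin RNA: it was 158.3 to 302 CPM in the 4 libraries above 20% immunoglobulin and 118 to 188 CPM in the other 4, with some overlap. Without those 4 libraries the log2 fold change of ILC2 over NMUR1+ cells was 0.50, with an adjusted p of 0.0259. The part of plasma cell RNA in the Bcl2l1 values was not tested.

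The BH3-only genes went opposite ways. Bcl2l11, which encodes the BIM protein, was at 255, 233, 162 and 201 CPM in ILC2 of NMU mice and 197, 237, 179 and 219.6 CPM in ILC2 of PBS mice. The CD4 T cell libraries were all lower, at 55.5 to 129 CPM in NMUR1+ cells (median 81.5) and 68.1 to 148 CPM in NMUR1- cells (median 83.1). The log2 fold change was 1.29 ± 0.17 (SE; adjusted p = 3.15e-06) over NMUR1+ cells and 1.10 ± 0.17 (adjusted p = 1.85e-05) over NMUR1- cells, higher in all 8 mice in each.

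Pmaip1 (Entrez 58801, chr18:66458604-66465558), which encodes NOXA, was the lower one. ILC2 had 122, 238, 218 and 157.6 CPM in NMU mice and 137, 122, 137 and 120.4 CPM in PBS mice. NMUR1+ CD4 T cells had 586, 694, 513 and 547 CPM in NMU mice and 525, 626, 497 and 394 CPM in PBS mice, and NMUR1- CD4 T cells had 338, 244, 327 and 497 CPM in NMU mice and 372, 430.0, 315 and 328 CPM in PBS mice. No ILC2 library reached the lowest CD4 T cell library, although NMU mouse 2 came within a few CPM of it. The log2 fold change of ILC2 was -1.83 ± 0.14 (SE; adjusted p = 1.16e-09) over NMUR1+ cells and -1.21 ± 0.14 (adjusted p = 3.73e-07) over NMUR1- cells. All 8 ILC2 libraries lay below all 8 of the other population for 6.14% of all genes against NMUR1+ cells and 8.52% against NMUR1- cells.

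The remaining BH3-only genes were low and variable in ILC2. Bbc3, which encodes the p53-induced protein PUMA, was at 0.0833 to 15.5 CPM in ILC2, 3.17 to 27.2 CPM in NMUR1+ cells and 4.18 to 16.4 CPM in NMUR1- cells. Bid, whose product is cut by caspase-8 and carries death receptor signals to mitochondria, was at 0 to 55.6 CPM in ILC2, 21.1 to 41.3 CPM in NMUR1+ cells and 16.9 to 31.6 CPM in NMUR1- cells. The 0 counts of Bid in ILC2 mouse 4 allow up to 3 counts, or 0.214 CPM, in that library (counting error only, and reads are not independent molecules). Neither gene passed the test between ILC2 and either CD4 population: the log2 fold change was -1.08 ± 0.62 and -0.67 ± 0.62 for Bbc3 and -0.76 ± 0.48 and -0.24 ± 0.47 for Bid (SE), against NMUR1+ and NMUR1- cells in that order, with adjusted p from 0.181 to 0.722.

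Bax, 1 of the 2 effectors, did not pass in either comparison. Against NMUR1+ cells Bax did pass in 1 of 16 alternatives, a fit with 1 mouse left out (edgeR adjusted p = 0.0254). It ranged from 107 to 190.3 CPM in ILC2, 149.8 to 175 CPM in NMUR1+ cells and 120.3 to 157 CPM in NMUR1- cells, with log2 fold changes of ILC2 of -0.18 ± 0.10 (SE; adjusted p = 0.184) and 0.04 ± 0.10 (adjusted p = 0.814) against NMUR1+ and NMUR1- cells in that order. Bak1, the second effector, was at 36.5 to 54.3 CPM in ILC2, 38.4 to 74.6 CPM in NMUR1+ cells and 46.5 to 117 CPM in NMUR1- cells. It was lower in ILC2 than in NMUR1- cells, at -0.60 ± 0.16 (adjusted p = 0.00438, lower in 7 of 8 mice), and against NMUR1+ cells the log2 fold change was -0.36 ± 0.16 (adjusted p = 0.0733). Apaf1 ranged from 106 to 157.8 CPM in ILC2 (median 122), 49.3 to 131 CPM in NMUR1+ cells (median 85.6) and 64 to 113 CPM in NMUR1- cells (median 83.4). It was higher in ILC2 by 0.51 ± 0.13 on the log2 scale over NMUR1+ cells (adjusted p = 0.0032, 7 of 8 mice) and by 0.54 ± 0.13 over NMUR1- cells (adjusted p = 0.00204, 8 of 8 mice).

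**Figure D2:**
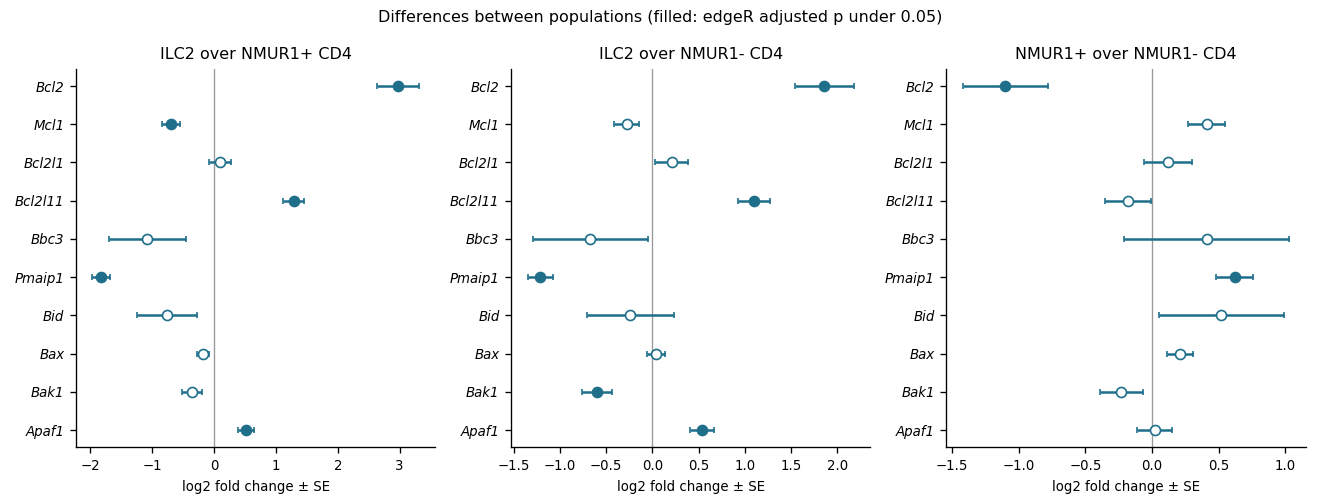
Log2 fold change ± SE (x axis) of each gene (y axis) between populations, averaged over treatments, from the edgeR fit of 24 libraries; filled points passed at an adjusted p under 0.05. Bcl2 stands at 2.97 and 1.86 in the ILC2 panels and at -1.10 in NMUR1+ over NMUR1- cells, and Pmaip1 at -1.83, -1.21 and 0.62.

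The second comparison set the CD4 T cells that carried the Nmur1 reporter against those that did not. Of the 10 genes, 2 passed, where 8.31% of all genes passed, 5.49% higher and 2.83% lower: Bcl2 was lower and Pmaip1 higher in NMUR1+ cells. For Bcl2 the log2 fold change of NMUR1+ over NMUR1- cells was -1.10 ± 0.32 (SE; adjusted p = 0.0343), with means of 13.2 ± 9.76 CPM in NMUR1+ cells, against 27.7 ± 8.85 CPM in NMUR1- cells (SD, n = 8). It was lower in 6 of 8 mice, and the NMUR1+ library of PBS mouse 7, at 36 CPM, stood well above the other 7, which were at 6.06 to 15.5 CPM. Without mouse 7 it was -1.56 with an adjusted p of 0.00333, and without mouse 1, 2, 4, 5, 6 or 8 it did not pass, with values of -1.12 to -0.93 and adjusted p of 0.0749 to 0.113. For Pmaip1 the log2 fold change was 0.62 ± 0.14 (adjusted p = 0.00673), with means of 548 ± 90.3 CPM in NMUR1+ cells, against 356 ± 77.3 CPM in NMUR1- cells (SD, n = 8), and it was higher in 8 of 8 mice, as for 14.4% of all genes with 1 sign in all 8 mice.

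Markers of other cells moved with the same comparison. Of 5 ILC2 markers, 4 passed as higher and 1 as lower in NMUR1+ cells. The NMUR1+ libraries also held more B and plasma cell RNA, of which 5 of 7 marker genes passed as higher, and more macrophage RNA, of which 2 of 6 did. The summed B and plasma cell markers ran from 2149 to 99486 CPM in NMUR1+ and 1079 to 11370.2 CPM in NMUR1- cells, and the summed macrophage and dendritic cell markers from 591 to 1966 CPM in NMUR1+ and 155 to 691 CPM in NMUR1- cells. With the log2 CPM of Jchain as a covariate, Pmaip1 was at 0.47 with an adjusted p of 0.133, and without the 4 libraries above 20% immunoglobulin it was at 0.65 with an adjusted p of 0.0698; it also missed the threshold without mouse 7, at 0.57 with an adjusted p of 0.0542. Bcl2 in the same fits was at -1.45 (adjusted p = 0.042) and -1.43 (adjusted p = 0.0369), as large as with all libraries. In the libraries themselves Pmaip1 was at 497 to 586 CPM above 20% immunoglobulin and 394 to 694 CPM below, so these sets of libraries overlapped. The part of ILC2 and macrophage RNA in these differences was not tested.

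The other 8 genes did not pass between the CD4 populations. Mcl1 was at 0.41 ± 0.14 on the log2 scale (SE; adjusted p = 0.0622), and it was called by DESeq2 (0.45, adjusted p = 0.0202), with DESeq2's size factors (adjusted p = 0.0436) and without mouse 4 (0.49, adjusted p = 0.00558). Bax stood at 0.21 ± 0.10 (adjusted p = 0.232), with Bax higher in NMUR1+ cells in 8 of 8 mice. For Bcl2l11 the value was -0.18 ± 0.17 and for Apaf1 0.02 ± 0.13. The order of Bcl2 over the 3 populations was thus ILC2, NMUR1-, NMUR1+, and that of Pmaip1 NMUR1+, NMUR1-, ILC2, with each step passing the test. The step between the CD4 populations was less firm: Bcl2 lost its call in 7 of 16 alternatives and Pmaip1 in 3 of 16.

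**Figure D3:**
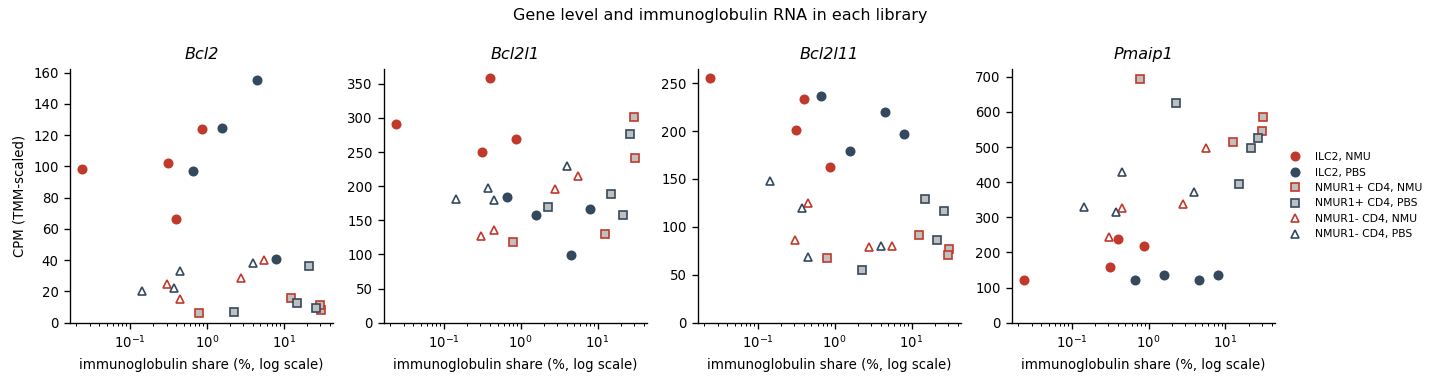
CPM of 4 genes (y axis) against the share of counts from immunoglobulin genes and Jchain (x axis, log scale) in each of the 24 libraries; circles are ILC2, squares NMUR1+ and triangles NMUR1- CD4 T cells, red for NMU and dark blue for PBS. Within NMUR1+ cells Bcl2l1 is at 158.3 to 302 CPM in the 4 libraries above 20% and 118 to 188 CPM in the other 4, and within ILC2 the NMU libraries, at 0.0241 to 0.867%, lie to the left of most PBS libraries, at 0.665 to 7.93%.

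The ratio of 2 genes within a library does not depend on how libraries are scaled, so ratios of survival to BH3-only gene counts were taken in each library, as a description with no test. The counts were not divided by gene length, so a ratio is compared between libraries only, and its sign has no meaning. The log2 ratio of Bcl2 to Bcl2l11 counts had a median of -1.13 in ILC2 (range -2.28 to -0.39), -3.17 in NMUR1+ cells (range -3.62 to -1.26) and -1.65 in NMUR1- cells (lowest -3.06). ILC2 and NMUR1- cells therefore overlapped widely in this ratio, since both of its genes were higher in ILC2. The ratio of Mcl1 to Bcl2l11 separated them: its median was -1.34 in ILC2 (range -1.85 to -0.56), 0.78 in NMUR1+ cells (range -0.12 to 1.40) and 0.22 in NMUR1- cells (range -0.67 to 0.72). Only the ILC2 library of mouse 4, at -0.56, lay within the range of the NMUR1- libraries. Mcl1 to Pmaip1 went the other way, with a median of -0.82 in ILC2 (range -1.72 to -0.21), -1.92 in NMUR1+ cells (range -2.59 to -1.57) and -1.73 in NMUR1- cells (range -2.31 to -1.07).

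**Figure D4:**
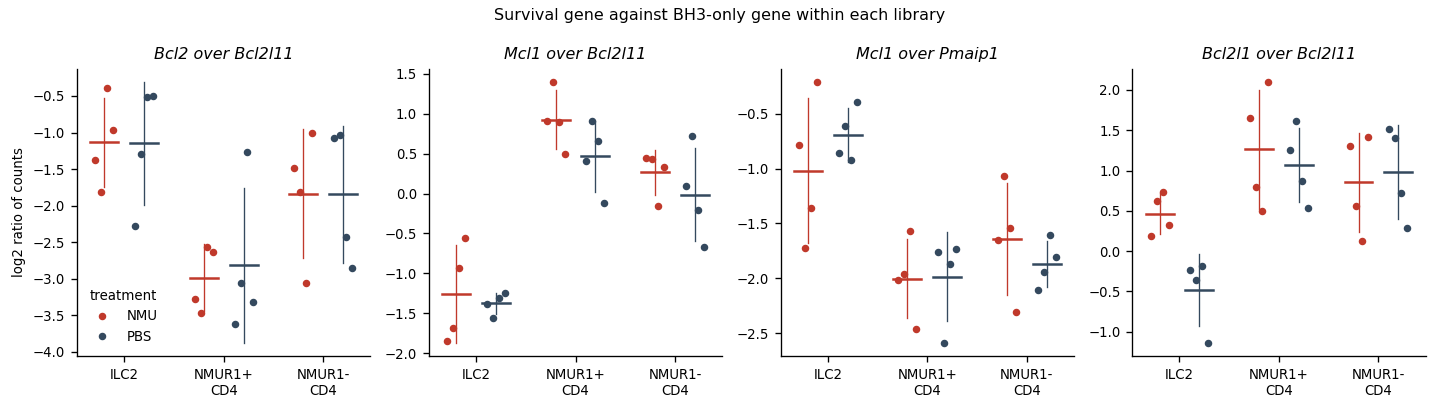
Log2 ratio of counts of a survival gene to a BH3-only gene (y axis) in each library, by population, with NMU left of PBS; horizontal lines are means and vertical lines ± 1 SD of 4 mice. Mcl1 over Bcl2l11 is at -1.85 to -0.56 in ILC2, against -0.12 to 1.40 in NMUR1+ and -0.67 to 0.72 in NMUR1- cells, and Bcl2l1 over Bcl2l11 is higher in the 4 ILC2 libraries of NMU mice (0.19 to 0.73) than in the 4 of PBS mice (-1.14 to -0.18).

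The third comparison asked what NMU injection changed within each population. None of the 10 genes passed in any population. The background was 74 of 11205 genes, or 0.66%, in ILC2, and 0 of 12061 (0%) in NMUR1+ and 0 of 12103 (0%) in NMUR1- CD4 T cells by edgeR. At an unadjusted p under 0.05, 307 genes differed in NMUR1+ and 877 in NMUR1- cells, or 2.55% and 7.25%, and DESeq2 called 4 and 23. At that unadjusted level 2, 1 and 2 of the 10 genes differed in ILC2, NMUR1+ and NMUR1- cells, where 12.4%, 2.55% and 7.25% of all genes did.

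Bcl2l1 stood nearest to a call, in ILC2. It was at 290.4, 359, 269.8 and 250.3 CPM in NMU mice 1 to 4, against 167, 184, 157.7 and 99.6 CPM in PBS mice 5 to 8. Every NMU library lay above every PBS library, as for 4.6% of all genes in ILC2. The means were 292 ± 47.2 CPM with NMU, against 152 ± 36.7 CPM with PBS (SD, n = 4 each), a log2 fold change of 0.92 ± 0.20 (SE) with an unadjusted edgeR p of 7.44e-04 and an adjusted p of 0.0765. The call turned on the method: DESeq2 gave an adjusted p of 0.00113, edgeR without the filter on low counts 0.0483 and edgeR on all 24 libraries 0.031, whereas limma voom gave 0.0637 and leaving out any 1 mouse 0.0992 to 0.182, with the value between 0.77 and 1.02 throughout.

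Other quantities moved with treatment in ILC2 as well. The immunoglobulin share was 0.0241 to 0.867% for NMU mice and 0.665 to 7.93% for PBS mice, and the summed B and plasma cell markers were at 781 to 1687 CPM with NMU and 2089 to 17029 CPM with PBS. With Jchain as a covariate Bcl2l1 was at 0.88 ± 0.26, with an adjusted p of 0.314. The higher Bcl2l1 levels in ILC2 were in the NMU libraries, most of which had less immunoglobulin RNA than the PBS libraries. The part of plasma cell RNA in this difference was not tested. Summed fibroblast markers were at 0 to 28 CPM with NMU and 6.83 to 332 CPM with PBS, and summed macrophage and dendritic cell markers at 22.8 to 275 CPM with NMU and 35.7 to 637 CPM with PBS. None of the 4 fibroblast and 5 macrophage and dendritic cell markers tested passed by edgeR (2 and 0 at an unadjusted p under 0.05), and all had negative log2 fold changes. Epcam, an epithelial gene, did pass, at 43 ± 12.3 CPM with NMU, against 11.5 ± 2.6 CPM with PBS (SD, n = 4 each; log2 fold change 1.88 ± 0.32, SE; adjusted p = 0.0308), and the summed epithelial markers were at 32.8 to 60.9 CPM with NMU and 12.3 to 19.9 CPM with PBS. The other epithelial markers tested, Krt8 and Krt19, went the other way, with log2 fold changes of -3.81 and -1.91, and did not pass. Epcam made up most of the epithelial sum. The part of the RNA of fibroblasts, macrophages and epithelial cells in the Bcl2l1 difference was not tested. Klrg1, a gene of the ILC2 gate, was at 1494 CPM with NMU and 835 CPM with PBS (log2 fold change 0.82, adjusted p = 0.030). The other ILC2 markers did not pass and were mixed in sign. Il1rl1 and Thy1 were at 0.15 and 0.24 on the log2 scale, and Gata3 and Il7r, also of the gate, at -0.15 and -0.42.

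In the CD4 T cells Bcl2l1 did not pass, and its groups overlapped. NMUR1+ cells had 241, 118, 130.0 and 302 CPM with NMU and 277, 169, 158.3 and 188 CPM with PBS, and NMUR1- cells had 196, 127, 136 and 215 CPM with NMU and 229, 180.3, 197 and 181.2 CPM with PBS. The log2 fold change was -0.00 ± 0.30 in NMUR1+ and -0.23 ± 0.17 in NMUR1- cells (SE). The test of the difference itself, the NMU effect in ILC2 minus that in the CD4 population, gave 0.95 ± 0.37 against NMUR1+ cells (unadjusted p = 0.0169, adjusted p = 0.243) and 1.17 ± 0.37 against NMUR1- cells (unadjusted p = 0.00424, adjusted p = 0.178). None of the 10 genes passed in these interaction tests, where 0.725% and 0.533% of all genes passed against NMUR1+ and NMUR1- cells, nor in that of NMUR1+ against NMUR1- cells, where 0% did by edgeR, 157 genes had an unadjusted p under 0.05 and DESeq2 called 6. A difference in the NMU effect between populations is therefore not shown for Bcl2l1.

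Pmaip1 in ILC2 was the other gene below 0.05 before adjustment. Its mean in NMU mice was 184 ± 53.3 CPM, against 129 ± 8.93 CPM in PBS mice (SD, n = 4 each), a log2 fold change of 0.49 ± 0.21 (SE; adjusted p = 0.361), and the lowest NMU library, mouse 1 at 122 CPM, lay within the PBS range. For Bcl2 in ILC2 the means were 97.7 ± 23.8 CPM with NMU, against 104 ± 48.8 CPM with PBS, and for Bcl2l11 213 ± 40.2 CPM with NMU, against 208 ± 25.2 CPM with PBS. Bcl2l11 thus had a log2 fold change of 0.01 ± 0.16 and Bcl2 of -0.12 ± 0.36. Mcl1, Bak1 and Apaf1 had values of 0.17 ± 0.23, 0.08 ± 0.21 and 0.08 ± 0.16, and Bax 0.25 ± 0.20. For Bbc3 and Bid, which had 0 or 1 count in single ILC2 libraries, the errors were above 1 on the log2 scale (-0.90 ± 1.32 and -1.16 ± 1.04), so a change of several fold could not be seen.

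In NMUR1- CD4 T cells the gene nearest to a call was Bbc3. Its level was 5.27, 4.18, 6.53 and 10.1 CPM in NMU mice, against 13.4, 13.7, 14.7 and 16.4 CPM in PBS mice. All NMU libraries were below all PBS libraries, as for 2.55% of all genes in that population. The means were 6.52 ± 2.57 CPM with NMU, against 14.6 ± 1.36 CPM with PBS (SD, n = 4 each), a log2 fold change of -1.17 ± 0.26 (SE) with an unadjusted p of 0.00119 and an adjusted p of 0.577. DESeq2 called it, with an adjusted p of 0.0393. In the same libraries the summed fibroblast markers were at 8.94 to 61.4 CPM with NMU and 46.6 to 194 CPM with PBS. None of the 5 passed by edgeR and 3 had an unadjusted p under 0.05, among them Col1a1, a collagen gene (log2 fold change -3.23 ± 0.66, SE; adjusted p = 0.577), and their part in the Bbc3 difference was not tested. The same gene in NMUR1+ cells was at 5.7, 5.77, 3.17 and 27.2 CPM in NMU mice and 16.5, 11.5, 15.9 and 20.2 CPM in PBS mice, so 3 NMU libraries lay below all 4 PBS libraries and that of mouse 4 above them. The log2 fold change there was -0.61 ± 0.59 (adjusted p = 1).

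Apaf1 and Bak1 also fell below an unadjusted p of 0.05 in 1 CD4 population each, and neither passed after adjustment. Apaf1 in NMUR1+ cells was at 123, 95.8, 77.9 and 131 CPM with NMU and 73.8, 69.6, 49.3 and 93.3 CPM with PBS, a log2 fold change of 0.58 ± 0.22 (SE; unadjusted p = 0.0224, adjusted p = 1). Bak1 in NMUR1- cells was at 46.5, 56.8, 60.1 and 48.1 CPM with NMU and 56.6, 51.6, 91.5 and 117 CPM with PBS, at -0.59 ± 0.26 (unadjusted p = 0.0451, adjusted p = 0.682), a value carried by PBS mice 7 and 8. For Apaf1 the NMU effect in NMUR1+ minus that in NMUR1- cells was 0.85 ± 0.26, with an adjusted p of 1.

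**Figure D5:**
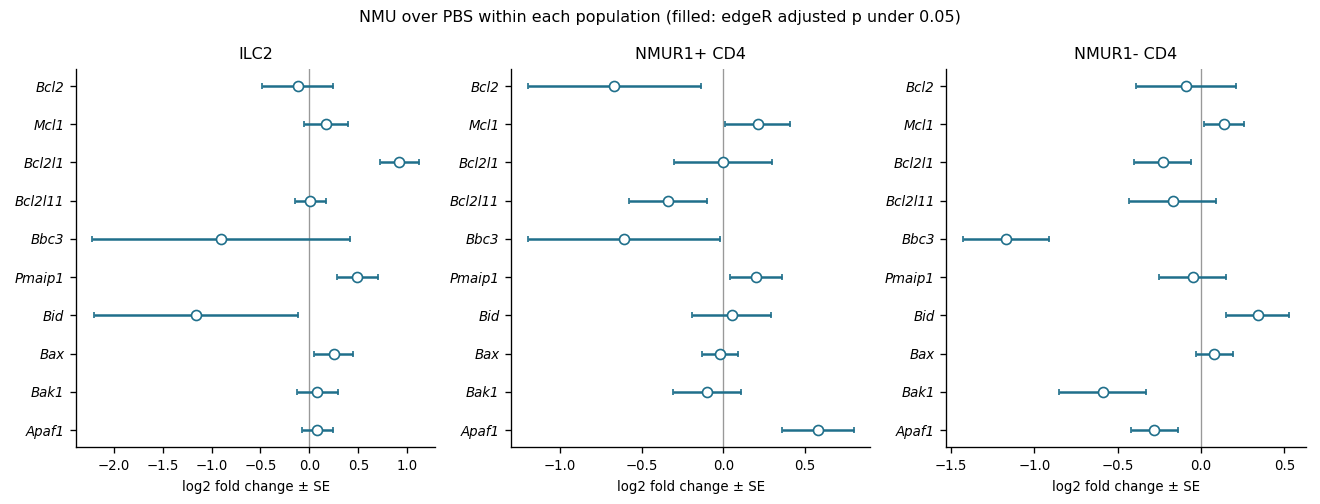
Log2 fold change ± SE (x axis) of NMU over PBS for each gene (y axis) within each population, from edgeR fits of 8 libraries each; no point is filled because none passed at an adjusted p under 0.05. Bcl2l1 in ILC2 stands at 0.92 ± 0.20 and Bbc3 in NMUR1- cells at -1.17 ± 0.26.

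The Bcl2l1 to Bcl2l11 ratio in ILC2 followed the Bcl2l1 difference. Its log2 value was 0.19 to 0.73 for the 4 NMU mice (median 0.47) and -1.14 to -0.18 for the 4 PBS mice (median -0.30). In NMUR1+ cells the ratio was 0.50 to 2.10 with NMU and 0.54 to 1.61 with PBS, and in NMUR1- cells 0.13 to 1.42 with NMU and 0.29 to 1.52 with PBS. In both CD4 populations the treatments overlapped.

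Other genes of the pathway were taken from lists by role. Of 6 other survival genes of the BCL2 family, 5 were tested between populations, and 3 were lower in ILC2 in each comparison and none higher, where 23.5% and 24.1% of all genes were lower than in NMUR1+ and NMUR1- cells. They were Bcl2a1a, Bcl2a1b and Bcl2a1d, which encode the A1 protein and are near-identical copies, so that reads may be split among them and their single values are uncertain. Bcl2a1b was at 19 ± 12.1 CPM in ILC2, against 141 ± 16.1 CPM in NMUR1+ cells and 127 ± 16.2 CPM in NMUR1- cells (SD, n = 8 each), with a log2 fold change of -2.95 ± 0.22 over NMUR1+ cells (adjusted p = 4.91e-10). Bcl2a1d in ILC2 was at 40.4 ± 17.3 CPM with NMU, against 14.9 ± 2.28 CPM with PBS (SD, n = 4 each), without passing (adjusted p = 0.104). Of the 8 tested among 9 other death genes of the family, 2 were higher and 3 lower in ILC2 than in NMUR1+ cells, where 38.6% of all genes passed, and 1 was lower than in NMUR1- cells, where 40.5% did. Higher than in NMUR1+ cells were Bik, with a log2 fold change of 1.75, and Bcl2l13, with 0.54. Bcl2l13 was at 57.5 ± 16.9 CPM in ILC2 and 38.6 ± 6.52 CPM in NMUR1+ cells. Lower were Bcl2l14, Bnip3 and Bnip3l, with log2 fold changes of -4.40, -1.02 and -0.32. Against NMUR1- cells the lower gene was Bcl2l14, with -4.48.

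Downstream of mitochondria, 14 caspase and apoptosome genes were tested, of which 3 were higher and 3 lower in ILC2 than in NMUR1+ cells, and 2 higher and 3 lower than in NMUR1- cells, near the 38.6% and 40.5% of all genes that passed. Cycs, which encodes cytochrome c, was at 98.9 ± 18.1 CPM in ILC2, against 76.5 ± 10.1 and 77.1 ± 15.5 CPM in NMUR1+ and NMUR1- cells. Of 9 inhibitor of apoptosis genes and their antagonists, 4 were higher and 2 lower in ILC2 than in NMUR1+ cells, and 4 higher and 1 lower than in NMUR1- cells, beside 38.6% and 40.5% of all genes. Naip5, better known as a sensor of bacterial flagellin, was at 49.6 ± 15.7 CPM in ILC2, against 4.09 ± 2.23 CPM in NMUR1+ cells and 1.96 ± 1.27 CPM in NMUR1- cells. Birc5, which is transcribed in dividing cells, was lower in ILC2, at 18.3 ± 15.5 CPM, against 73 ± 26.8 and 97.5 ± 56.6 CPM.

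In the death receptor list 10 of 12 genes passed between ILC2 and NMUR1+ cells, 4 higher and 6 lower, and 9 of 12 between ILC2 and NMUR1- cells, 4 higher and 5 lower, beside 38.6% and 40.5% of all genes. Fasl, the ligand of FAS, was at 7.04 ± 5.73 CPM in ILC2, against 68.7 ± 15.4 CPM in NMUR1+ cells and 192 ± 51.7 CPM in NMUR1- cells (SD, n = 8), and it was also lower in NMUR1+ than NMUR1- cells (log2 fold change -1.48, adjusted p = 0.0083). Fas itself was at 67 ± 31.8 CPM in ILC2, against 111 ± 26.7 CPM in NMUR1+ cells and 109.9 ± 10.5 CPM in NMUR1- cells. Tnfsf10, which encodes the ligand TRAIL, and Tnfrsf10b, its receptor, went the other way: Tnfsf10 was at 46 ± 19.4 CPM in ILC2 and 16.4 ± 5.61 and 12.6 ± 4.9 CPM in NMUR1+ and NMUR1- cells, and Tnfrsf10b at 32.7 ± 7.46 CPM in ILC2 and 14.6 ± 2.66 and 11.7 ± 3 CPM. Tnfsf10 was the only gene of the 8 pathway lists that passed between NMU and PBS in any population, in ILC2, at 63.4 ± 6.98 CPM with NMU, against 28.6 ± 5.08 CPM with PBS (SD, n = 4 each; log2 fold change 1.13 ± 0.21, adjusted p = 0.044). It lost the call in 9 of 15 alternatives, among them every fit without 1 mouse (adjusted p of 0.0691 to 0.151). Fas in ILC2, chosen like Bcl2a1d after its values were seen, was at 90.4 ± 28.7 CPM with NMU, against 43.5 ± 8.29 CPM with PBS, with an adjusted p of 0.104.

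Of 10 tested genes of the p53 list, 3 were higher and 3 lower in ILC2 than in NMUR1+ cells and 3 higher and 2 lower than in NMUR1- cells, beside 38.6% and 40.5% of all genes. Cdkn1a, the cell cycle inhibitor p21 and the highest of the list, was at 1816 ± 419 CPM in ILC2, against 599 ± 98.5 CPM in NMUR1+ cells and 310.3 ± 78.5 CPM in NMUR1- cells (SD, n = 8), and all 3 steps passed. Sesn2, a stress-induced gene, was at 52.7 ± 16.6 CPM in ILC2, against 22.5 ± 7.46 and 19 ± 6.91 CPM in NMUR1+ and NMUR1- cells. Trp53inp1, which promotes p53 activity, was lower in ILC2, at 105 ± 40.7 CPM, against 264 ± 65.1 and 185 ± 48.7 CPM. Pmaip1, a p53 target too, had the opposite sign to Cdkn1a between ILC2 and each CD4 population. Between the CD4 populations they had the same sign, higher in NMUR1+ cells by 0.62 for Pmaip1 and 0.95 for Cdkn1a on the log2 scale.

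Upstream of the BCL2 family, 7 of 13 genes of survival signals were higher and 3 lower in ILC2 than in NMUR1+ cells, and 8 higher and 3 lower than in NMUR1- cells. Of all genes, 15.1% were higher and 23.5% lower against NMUR1+ cells, and 16.4% and 24.1% against NMUR1- cells. Il7r, the IL-7 receptor chain and, as CD127, a marker of the ILC2 gate, was at 773 ± 150.3 CPM in ILC2, against 368 ± 89.4 CPM in NMUR1+ cells and 266 ± 34.9 CPM in NMUR1- cells (SD, n = 8). Pim3, which encodes a survival kinase, was at 548 ± 123.5 CPM in ILC2, against 167 ± 53.5 and 109 ± 57 CPM in NMUR1+ and NMUR1- cells. Stat5b, the transcription factor below those receptors, was lower in ILC2, at 62.6 ± 20.4 CPM, against 189 ± 55.4 and 244 ± 53.6 CPM, and Stat5a had the same order. Foxo1, a transcription factor held out of the nucleus by growth factor signals, was lower in ILC2, at 30.2 ± 5.49 CPM, against 127 ± 23.2 and 161 ± 35.3 CPM, and the related Foxo3 was higher, at 21.8 ± 6.27 CPM, against 10.7 ± 3.16 and 8.75 ± 3.3 CPM. Il2ra, the high-affinity IL-2 receptor chain, was at 727 ± 127 CPM in NMUR1+ cells, against 464 ± 91.6 CPM in NMUR1- cells (adjusted p = 0.00315). Of 5 tested genes that act on MCL1 protein turnover, 1 was higher in ILC2 than in NMUR1+ cells, and 1 was higher and 2 lower than in NMUR1- cells, with the same shares of all genes; Huwe1, a ubiquitin ligase for MCL1, was at 130.1 ± 20.4 CPM in ILC2, against 83.8 ± 21.7 and 90.6 ± 11.1 CPM.

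Between NMUR1+ and NMUR1- CD4 T cells 8.31% of all genes passed. None of 5 other survival genes and none of 8 other death genes of the family did, by edgeR. At an unadjusted p under 0.05, 1 and 4 of them differed, where 2924 of all 13509 genes did. The calls were 1 of 14 caspase and apoptosome genes, 3 of 9 inhibitor genes, 2 of 12 death receptor genes, 1 of 10 p53 genes, 3 of 13 survival signal genes and 1 of 5 MCL1 turnover genes. Il7r and Tsc22d3, a glucocorticoid-induced gene, were higher in NMUR1+ cells at 0.47 and 0.63 on the log2 scale (adjusted p = 0.0379 and 0.0353).

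For the 3 genes with the widest range of group means of log2 CPM, Bcl2, Bbc3 and Bid, the tested genes most like them over the 24 libraries were found among 12047 genes by Pearson's r of log2 CPM. Nearest to Bcl2 were Eml4, Pde7a and Klrk1, each at r = 0.89. Klrk1, which encodes the receptor NKG2D, had means of 167.9 CPM in ILC2, 16 CPM in NMUR1+ cells and 20.4 CPM in NMUR1- cells, and Pde7a, a cyclic AMP phosphodiesterase, 74.3, 15.1 and 23.9 CPM in the same order. Nearest to Bbc3 were Dennd6a (0.86), Ube2o (0.85) and B4galt4 (0.84), and nearest to Bid were Zfp119b (0.85), Gga2 (0.84) and Pnpla7 (0.83). In ILC2, NMUR1+ and NMUR1- cells the means were 15.3, 23.9 and 23.8 CPM for Dennd6a and 3.96, 18.3 and 11.1 CPM for B4galt4. Ube2o was nearly level, at 9.97, 10.4 and 11.1 CPM. For Zfp119b the means were 8.45, 17 and 13.7 CPM, for Gga2 9.21, 10.9 and 9.29 CPM and for Pnpla7 38, 51.5 and 38.5 CPM. The means of Bbc3 and Bid include the ILC2 libraries with 0 or 1 count, which lower a mean of logs. These libraries also enter r, and their part in it was not tested. Pmaip1 had the next widest range, and Tank was nearest to it (0.95). These values are descriptions, since the 24 libraries come from 8 mice and 3 populations and share their depth and library make-up.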

How the data were processed

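The 24 libraries were made from sorted cells with an RNeasy Micro Kit and a NEBNext Single Cell/Low Input kit, which marks neither strand nor single molecules, per the labels' protocols. The authors deposited raw counts per Entrez gene in 1 table; the submitters' processing notes name STAR 2.5.3 and mm10, and for the counter, annotation and strand setting the sources used here give nothing. Of 27179 gene numbers, 25275 (93.0%) matched a symbol, and the 1904 others held 0.986% of counts. The 10 genes and all gene lists were chosen with earlier results of these data known. From the counts, edgeR 4.0.16 in R 4.3.3 was run with TMM scaling, its expression filter (minimum count 10), the robust quasi-likelihood test and Benjamini-Hochberg adjustment over every gene tested, calling an adjusted p under 0.05. NMU was compared with PBS within the 8 libraries of a population. Populations and interactions were tested in 1 fit of all 24 libraries with 6 group means. SD is over mice, and SE is that of the fitted log2 fold change. The fits were also run on simulated counts, drawn independently for each library around a common mean per gene, with set changes in some genes. The simulation held no shared mouse, no dropouts and no joint spread of plasma cell genes, so it does not test those limits. Levels per kilobase used the union of GENCODE M21 exons.

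Alternatives were DESeq2 1.42.0, limma 3.58.1 voom, DESeq2 size factors in edgeR, no filter, immunoglobulin genes left out, log2 CPM of Jchain as a covariate, all 24 libraries, the mouse as a block, no NMUR1+ library above 20% immunoglobulin, and each mouse left out. The mouse pairs the populations, since 1 animal gave all 3 libraries: for the same mouse, the correlation of deviations from group means had a median of 0.045 between ILC2 and NMUR1+ (-0.011 to 0.155), 0.06 between ILC2 and NMUR1- (0.001 to 0.227) and 0.222 between NMUR1+ and NMUR1- (0.029 to 0.432). All 10 genes are described. Of the other listed genes, those named were up to 3 per list and direction with the largest fold change among those past the threshold, unless said otherwise; some listed genes are not reported here. For likeness, the 3 genes with the widest range of group means were used, leaving out predicted genes and pseudogenes.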

Additional observations from a re-analysis of the deposited data

Results flagged for a closer look

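Of 60 sets of 4 libraries (10 genes in 6 groups), 5 had 1 library far from the other 3, past the critical value of Dixon's gap test. Chance flags about 1 in 20 such sets. Bcl2l11 was at 124.5 CPM in NMUR1- CD4 T cells of NMU mouse 3, with 79.1 to 86.1 CPM in the other 3. Bax was at 190.3 CPM in ILC2 of PBS mouse 6, with 107 to 115 CPM in the others, and Bid in the same library was at 55.6 CPM, with 14.1 to 19.3 CPM in the others. Bid was also highest in mouse 6 among NMUR1- CD4 T cells of PBS mice, at 23.8 CPM, with 16.9 to 17.8 CPM in the others. Bbc3 was at 27.2 CPM in NMUR1+ CD4 T cells of NMU mouse 4, with 3.17 to 5.77 CPM in the others.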

How the results depend on the processing

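The number of the 10 genes called between NMU and PBS in ILC2 was 1 in place of 0 with DESeq2, with no filter and with all 24 libraries, and in NMUR1- cells 1 in place of 0 with DESeq2. Between NMUR1+ and NMUR1- cells it was 1 in place of 2 with limma voom, with the Jchain covariate and without the NMUR1+ libraries above 20% immunoglobulin, 3 with DESeq2 and with DESeq2's size factors, and 1 to 2 with 1 mouse left out. The 5 calls between ILC2 and NMUR1+ cells ranged from 5 to 7. Bcl2l1, Bax, Bbc3 and Bid each gained a call there in 1 of 16 alternatives. In the fits with the mouse as a block no call among the 10 genes changed (Bcl2 -1.28, adjusted p = 0.0236, and Pmaip1 0.62, adjusted p = 0.0132, in NMUR1+ over NMUR1- cells). Bik (1.75, adjusted p = 0.0628), counted above among the other death genes, lost its call there between ILC2 and NMUR1+ cells. Dffa (0.50, adjusted p = 0.0766), counted among the caspase and apoptosome genes, lost its call between ILC2 and NMUR1- cells. Tsc22d3 (0.62, adjusted p = 0.0555) lost its call between the CD4 populations. Over all alternatives Bik lost that call in 10 of 16, Dffa in 7 of 15 and Tsc22d3 in 9 of 16. Signs turned only for values near 0 or with wide errors, and the cause was not tested. For NMU over PBS these were, in ILC2, Bcl2 (0.04 with voom), Bcl2l11 (-0.02 with voom, -0.20 with Jchain) and Bbc3 (0.37 with Jchain), and in NMUR1- cells Bcl2l11 (0.03 with Jchain). For NMUR1+ over NMUR1- cells they were Bcl2l1 (-0.18 with Jchain, -0.28 without the libraries rich in immunoglobulin), Bbc3 (-0.48 and -0.20) and Apaf1 (-0.04 and -0.02, and -0.02 with voom), and the Bcl2l1 interaction between them was -0.29 without those libraries. With 1 mouse left out, signs also turned within these ranges: in ILC2, Bcl2 -0.37 to 0.14, Mcl1 -0.10 to 0.28, Bcl2l11 -0.08 to 0.12, Bak1 -0.04 to 0.16 and Apaf1 -0.04 to 0.14; in NMUR1+ cells, Bcl2 -0.95 to 0.08, Bcl2l1 -0.29 to 0.20, Bax -0.06 to 0.00, Bak1 -0.24 to 0.06 and Bid -0.12 to 0.15; in NMUR1- cells, Bcl2 -0.33 to 0.11, Bcl2l11 -0.35 to 0.05 and Pmaip1 -0.25 to 0.09; Bcl2l1 in ILC2 over NMUR1+ cells, -0.02 to 0.27; Bax in ILC2 over NMUR1- cells, -0.07 to 0.09; and Apaf1 in NMUR1+ over NMUR1- cells, -0.04 to 0.07. Over all genes, calls between NMU and PBS in ILC2 numbered 74, with 665 by DESeq2, 8 with Jchain, 1053 with all 24 libraries and 12 to 63 with 1 mouse left out. In NMUR1+ and NMUR1- cells 0 became 4 and 23 by DESeq2. Calls between NMUR1+ and NMUR1- cells numbered 1123, with 403 with Jchain, 393 without the libraries rich in immunoglobulin and 609 to 1035 with 1 mouse left out. The ILC2 and NMUR1+ interaction had 98 calls, with 542 by DESeq2, 24 by voom, 54 unfiltered, 52 with Jchain, 46 with the block, 15 without the libraries rich in immunoglobulin and 30 to 106 with 1 mouse left out. That of ILC2 and NMUR1- had 72, with 412 by DESeq2, 21 by voom, 34 with Jchain, 36 with the block and 20 to 83 with 1 mouse left out, and that of NMUR1+ and NMUR1- had 0, with 6 by DESeq2 and 1 with the block. Counts of 0 or 1 in single ILC2 libraries limit Bid and Bbc3 there.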
